A study of Mus musculus with 36 samples.

Results

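The 4 protein-coding genes of primary mouse embryonic fibroblasts (MEFs), Jade2, Tent5b, Suox and Dennd2a, are described here across 5 genotypes of the glucocorticoid receptor (GR). They are 4 of the 55487 genes in the count table and 4 of the 15489 genes that passed the filter on low counts. The genes were chosen by their response to dexamethasone (Dex), a synthetic glucocorticoid, because Dex raised them in GRwt/wt cells and raised them less in the receptor mutants. Their Dex responses are therefore given as a description without a test. Their vehicle levels were no criterion by themselves and were tested, although the vehicle libraries enter those responses. No numerical limit was attached to the choice.

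The MEFs were grown from E13.5 embryos in medium with fetal calf serum, and each genotype was represented in a run by 3 cultures, treated for 5 h with vehicle or with 1 µM Dex. The cultures of a genotype are described in the study as coming from different mice. Run 1 held GRwt/wt, GRD/D, GRD+L/D+L and GRko/ko cells, and run 2 held GRL/L cells and another set of GRwt/wt cells, which gives 36 libraries in 12 groups of 3. The D allele carries a missense mutation in the DNA-binding domain of GR, the L allele carries one in the ligand-binding domain, D+L carries both in the same protein, and both domains hold a surface by which receptors pair. The L and D+L alleles came from CRISPR/Cas9 editing of zygotes that carried the D allele and were crossed back to FVB/NJ. FVB/NJ is the labelled strain of every group, whereas the methods of the study name 129/SvJ for the parents of the GRko/ko embryos. Dimerization itself was not measured in these libraries.

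GR is a nuclear receptor that rests in the cytoplasm and moves into the nucleus when it binds a glucocorticoid. There it can bind as a pair of receptors to glucocorticoid response elements (GREs), or act as a single receptor, often beside other transcription factors. A GRE holds a short motif followed by its copy on the opposite strand. In fibroblasts, glucocorticoids are best known for lowering inflammatory genes and for raising feedback genes such as Tsc22d3 and Fkbp5. The 4 genes have no common pathway. Jade2 codes for a PHD finger protein of the HBO1 histone acetyltransferase complex. Tent5b codes for a noncanonical poly(A) polymerase. Suox codes for sulfite oxidase, a mitochondrial enzyme with a molybdenum cofactor that turns sulfite into sulfate. Dennd2a codes for a DENN domain protein that activates a Rab GTPase of endosome traffic.

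On mm10, Jade2 (ENSMUSG00000020387) lies on the minus strand at chr11:51813455-51857653, Tent5b (ENSMUSG00000046694) on the plus strand at chr4:133480132-133487938, Suox (ENSMUSG00000049858) on the minus strand at chr10:128669894-128674073, and Dennd2a (ENSMUSG00000038456) on the minus strand at chr6:39462378-39557867, by the GENCODE M21 annotation. Their merged exons cover 10760, 2287, 2497 and 7229 bases. The counted reads are those of the whole gene, since the table gives one value per gene. An antisense gene, Gm13257, overlaps the start of Tent5b, and 8030453O22Rik overlaps Dennd2a on the other strand. Whether the counting used the strand is not given in the sources used here, so reads of overlapping genes on the 2 strands cannot be told apart. Gm13257 was listed at 0 counts in every library and 8030453O22Rik at 0 to 6 counts.

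The promoter sequences of Tent5b, Suox and Dennd2a, from 250 bases before to 50 after the start site, are shown because GR acts through DNA sites. The genes were chosen for their Dex response. They were taken from RefSeq on GRCm38.p6 for 3 of the 4 genes, and Jade2 had no match. The 3 motifs searched on both strands were the full GRE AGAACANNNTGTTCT, its core ACANNNTGT and its arm AGAACA, and a full GRE also holds the core and the arm. Capitals mark a match to any of them.
Tent5b, chr4:133479883-133480182, plus strand: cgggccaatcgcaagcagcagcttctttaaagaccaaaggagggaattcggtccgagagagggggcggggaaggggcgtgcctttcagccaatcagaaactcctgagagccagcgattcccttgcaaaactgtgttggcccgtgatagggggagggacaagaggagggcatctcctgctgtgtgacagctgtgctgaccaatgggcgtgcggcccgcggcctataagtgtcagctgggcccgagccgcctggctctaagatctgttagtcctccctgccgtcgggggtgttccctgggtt
Suox, chr10:128673869-128674168, minus strand: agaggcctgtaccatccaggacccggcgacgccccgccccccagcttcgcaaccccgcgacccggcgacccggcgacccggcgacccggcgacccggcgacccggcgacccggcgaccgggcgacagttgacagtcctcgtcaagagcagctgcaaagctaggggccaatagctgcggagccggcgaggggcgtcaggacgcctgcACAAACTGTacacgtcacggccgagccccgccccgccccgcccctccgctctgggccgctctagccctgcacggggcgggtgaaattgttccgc
Dennd2a, chr6:39557785-39558084, minus strand: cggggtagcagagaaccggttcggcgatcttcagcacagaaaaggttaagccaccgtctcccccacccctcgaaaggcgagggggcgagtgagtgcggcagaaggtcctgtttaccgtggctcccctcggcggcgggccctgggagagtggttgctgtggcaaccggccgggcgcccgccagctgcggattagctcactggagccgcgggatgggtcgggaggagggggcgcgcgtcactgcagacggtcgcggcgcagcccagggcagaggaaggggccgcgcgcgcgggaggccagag
The Suox promoter held a single match, the core ACAAACTGT at chr10:128673954-128673962, whose first base lay 44 bases before the RefSeq start site at position 128673918. The GENCODE end of Suox given above, 128674073, lies further out, so that by GENCODE the match is inside the gene. The start site used for Dennd2a likewise differs from its GENCODE end. The other 2 promoters held none of the motifs. Among all 32851 promoters of the same length, 6.85% held the core, 19% the arm and 0.00913% the full site. A match is a run of letters and not a measured binding site, and these windows leave out any distant element. The share of G and C was 60.7% for Tent5b, 73.3% for Suox and 70.7% for Dennd2a, against a median of 52.7% over all promoters.

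The libraries held 15280166 to 28662608 counts, with 15280166 to 19102035 in run 1 and 21532686 to 28662608 in run 2, and the 4 genes had 69 to 2559 counts in any library. Levels are given as CPM, counts scaled to one common library size after TMM, edgeR's correction for library composition. Nr3c1, the gene of GR, was at 15.9 to 20.4 CPM in GRko/ko libraries and at 47.8 to 105 CPM in the others, so transcript remained in the knockout but at a lower level. All 8 fibroblast markers were present in every library (summed 30950 to 51160 CPM). Macrophage markers were present too and differed between groups. The sum of the 8 was 30.5 to 40.8 CPM in GRD+L/D+L, 176 to 310 in GRwt/wt of run 1, 644 to 764 in GRD/D, 2425 to 2873 in GRko/ko, 406 to 482 in GRwt/wt of run 2 and 654 to 956 in GRL/L. By Xist and 4 Y-linked genes, all libraries of GRwt/wt in run 1 and of GRD/D were female, and those of the other 4 combinations of genotype and run were male, with Xist at up to 14.1 CPM in GRko/ko. Sex and genotype therefore cannot be told apart in GRD+L/D+L and GRko/ko, nor sex and run in GRwt/wt. In bulk RNA, fewer cells of a type and less RNA per cell cannot be told apart either.

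Tent5b showed the highest fold response of the 4 genes. In GRwt/wt of run 1 its level was 8.76, 10.0 and 9.15 CPM with vehicle and 79.6, 72.6 and 73.9 CPM with Dex. In run 2 it was 6.60, 5.69 and 7.47 CPM with vehicle and 62.7, 63.9 and 59.2 CPM with Dex. The vehicle and Dex libraries lay far apart in both runs. In GRL/L the 3 vehicle libraries were at 4.85 to 6.19 CPM and the 3 Dex libraries at 40.0 to 45.0 CPM, again far apart. In GRD/D the level went from 7.91 to 10.1 CPM with vehicle to 15.98 to 19.3 CPM with Dex, and in GRD+L/D+L from 7.14 to 7.75 CPM to 10.9 to 14.6 CPM. These groups did not overlap, but all 6 Dex libraries stayed below those of GRwt/wt. The GRko/ko libraries overlapped, at 4.36 to 4.99 CPM with vehicle and 4.13 to 5.34 CPM with Dex. The log2 fold change was 3.02 (standard error 0.095) and 3.23 (0.090) in GRwt/wt of runs 1 and 2, 2.94 (0.092) in GRL/L, 1.02 (0.11) in GRD/D, 0.71 (0.12) in GRD+L/D+L and −0.03 (0.15) in GRko/ko.

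Jade2 showed no rise in 3 genotypes and kept most of it in GRL/L. In GRwt/wt of run 1 it was at 6.42, 6.85 and 8.37 CPM with vehicle and at 24.1, 25.3 and 24.7 CPM with Dex. In run 2 it was at 15.4, 13.9 and 14.6 CPM with vehicle and at 39.2, 44.1 and 42.7 CPM with Dex. In GRL/L it was at 14.4 to 15.7 CPM with vehicle and at 33.5 to 35.4 CPM with Dex. The groups were separate in all 3 pairs. In GRD/D the vehicle libraries were at 9.71, 8.68 and 9.49 CPM and the Dex libraries at 8.32, 8.66 and 7.77 CPM, and in GRD+L/D+L the level was 5.91, 6.20 and 5.99 CPM with vehicle and 4.90, 5.36 and 4.65 CPM with Dex. Here every Dex library lay below every vehicle library, although in GRD/D the nearest libraries were at 8.66 and 8.68 CPM. The log2 fold change was 1.77 (standard error 0.084) and 1.52 (0.063) in GRwt/wt of runs 1 and 2, 1.20 (0.063) in GRL/L, −0.17 (0.094) in GRD/D, −0.28 (0.11) in GRD+L/D+L and −0.04 (0.072) in GRko/ko.

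Suox, the sulfite oxidase gene, was the gene of the 4 with the largest step between the runs. In GRwt/wt of run 1 it was at 17.2, 19.9 and 19.3 CPM with vehicle and at 76.5, 77.0 and 72.3 CPM with Dex. In run 2 it was at 15.2, 15.9 and 15.1 CPM with vehicle and at 31.9, 33.3 and 33.4 CPM with Dex. All GRwt/wt Dex libraries were above the vehicle libraries, and the Dex level of run 2 was less than that of run 1 in every library. In GRL/L the vehicle libraries were at 15.95 to 17.8 CPM and the Dex libraries at 21.5 to 24.7 CPM, and in GRD/D they were at 20.7 to 22.0 and 22.8 to 25.2 CPM, separate in both. In GRD+L/D+L the range was 20.1 to 21.9 CPM with vehicle and 21.8 to 23.7 CPM with Dex, which overlap. In GRko/ko the Dex libraries (12.3 to 13.3 CPM) were all below the vehicle libraries (13.8 to 15.9 CPM). The log2 fold change was 2.00 (standard error 0.062) and 1.09 (0.060) in GRwt/wt of runs 1 and 2, 0.44 (0.060) in GRL/L, 0.20 (0.066) in GRD/D, 0.09 (0.068) in GRD+L/D+L and −0.20 (0.076) in GRko/ko.

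Dennd2a had the most counts and the least fold response in GRwt/wt. It went from 70.7, 69.3 and 72.6 CPM to 151, 148 and 144 CPM in run 1, and from 47.8, 44.6 and 43.6 CPM to 89.5, 93.9 and 94.5 CPM in run 2. GRL/L cells were at 47.0 to 50.2 CPM with vehicle and at 68.0 to 69.7 CPM with Dex. These groups were separate. In GRD/D (62.2 to 72.4 and 70.3 to 73.3 CPM), GRD+L/D+L (73.9 to 78.6 and 74.2 to 83.5 CPM) and GRko/ko (46.7 to 49.1 and 45.5 to 50.5 CPM) the vehicle and Dex libraries overlapped. The log2 fold change was 1.06 (standard error 0.052) and 1.03 (0.051) in GRwt/wt of runs 1 and 2, 0.52 (0.051) in GRL/L, 0.07 (0.053) in GRD/D, 0.05 (0.053) in GRD+L/D+L and −0.01 (0.056) in GRko/ko.

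**Figure D1:**
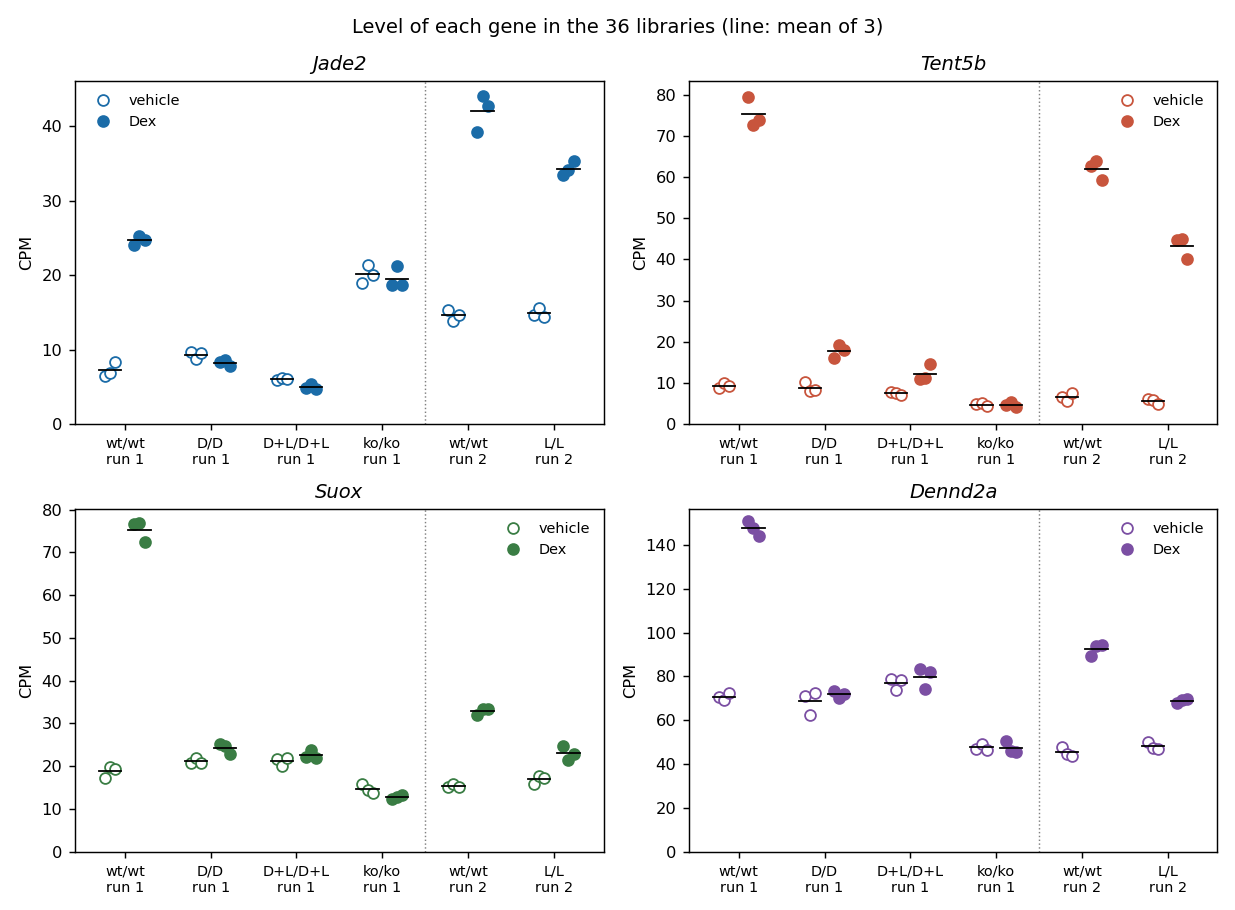
Level of each gene in CPM (linear axis from 0) in the 3 vehicle (open) and 3 Dex (filled) libraries of each genotype and run, with the mean as a line. The filled points stand apart from the open points in GRwt/wt of both runs and in GRL/L, whereas in GRD/D and GRD+L/D+L only Tent5b stands clearly above its vehicle level, at 15.98 to 19.31 and 10.89 to 14.6 CPM.

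**Figure D2:**
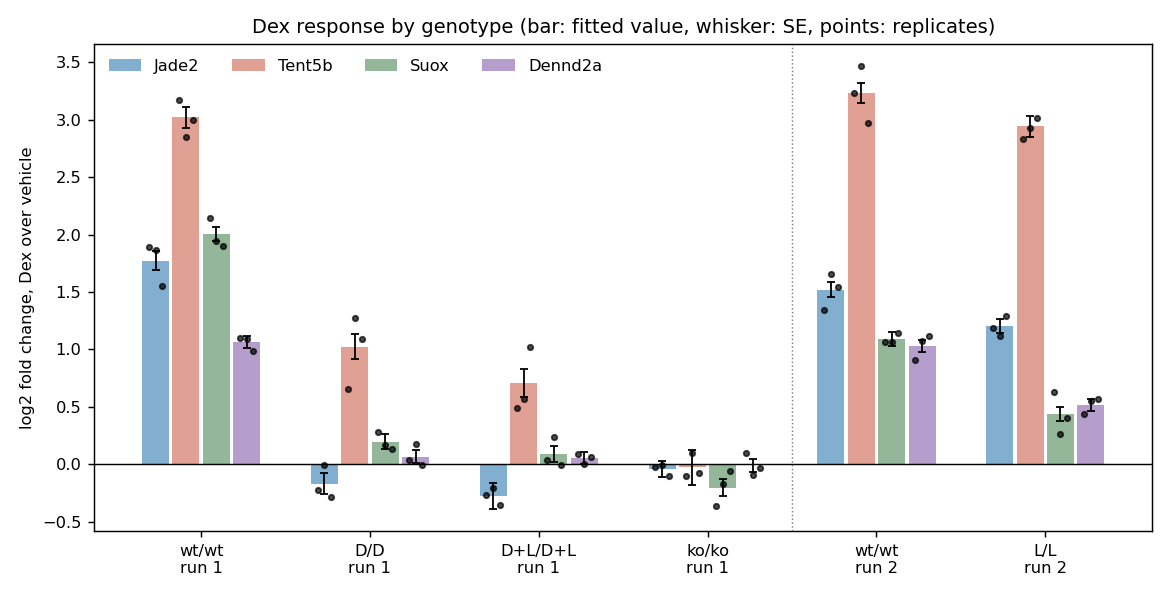
Log2 fold change of Dex over vehicle by genotype and run for the 4 genes, with the fitted value as a bar, its standard error as a whisker and the differences between libraries of the same number as points. The bars of GRwt/wt reach 1.03 to 3.23, and those of GRko/ko lie between −0.20 and −0.01.

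A log2 fold change of at least 1 was reached by all 4 genes in GRwt/wt of each run, by Jade2 and Tent5b in GRL/L and by Tent5b in GRD/D. No gene of the 4 reached it in GRD+L/D+L or GRko/ko. For scale, the share of all tested genes that passed this limit together with an adjusted p of at most 0.05 in edgeR's quasi-likelihood test was 2.01% in GRwt/wt of run 1, 4.49% in GRwt/wt of run 2, 2.56% in GRL/L, 0.981% in GRD/D, 0.4% in GRD+L/D+L and 0% in GRko/ko. In GRko/ko 859 genes had an unadjusted p under 0.05, and DESeq2 called 1 gene. Since the choice rests on these contrasts, nothing is read from the counts.

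The response kept by a mutant was expressed as a share of the log2 fold change of GRwt/wt in the same run, and set beside the same share over all genes that Dex raised there. In GRD/D the share was −9.47% for Jade2, 6.30% for Dennd2a, 9.78% for Suox and 33.9% for Tent5b, and the median of the 198 genes raised in run 1 was 27.5% (quartiles 5.72% and 55.5%). A lower share was held by 19 of the 198 genes for Jade2, 50 for Dennd2a, 60 for Suox and 112 for Tent5b. Tent5b thus lay above the median, and 16.7% of the raised genes had a share of 0 or less. In GRD+L/D+L the share was −15.7% for Jade2, 4.53% for Suox, 5.11% for Dennd2a and 23.5% for Tent5b, against a median of 21.2%. The differences between the GRD+L/D+L and GRD/D log2 fold changes were −0.11 (approximate standard error 0.15) for Jade2, −0.31 (0.16) for Tent5b, −0.11 (0.095) for Suox and −0.01 (0.075) for Dennd2a, and the replicate values of the genotypes overlapped for each gene. Replicate values match Dex and vehicle libraries by their number, which was not shown to mark pairs. In GRko/ko the share was −10.1% to −0.838%, with a median of −1.29% over the raised genes.

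In GRL/L the 4 genes divided. The share was 79.1% for Jade2 and 91.0% for Tent5b, both above the median of 70.6% over the 378 genes raised in GRwt/wt of run 2, and 40.0% for Suox and 50.2% for Dennd2a, both below the lower quartile of 53.6%. A lower share was held by 51 of the 378 genes for Suox, 82 for Dennd2a, 244 for Jade2 and 316 for Tent5b. The premise of the choice, a much reduced induction in the mutants, was thus not met by Tent5b and Jade2 in GRL/L, where the log2 fold change was 0.29 (approximate standard error 0.13) and 0.32 (0.089) less than in GRwt/wt. The same reduction was 0.66 (0.085) for Suox and 0.51 (0.072) for Dennd2a. The Dex level itself was below that of every GRwt/wt Dex library of the run for all 4 genes, at 81.7% of the mean for Jade2, 69.9% for Tent5b, 70.1% for Suox and 74.4% for Dennd2a. How many of the 378 raised genes lay below in this way was not counted. The choice rests on these Dex values, so nothing is read from it. On the linear scale, as a ratio of the rises in CPM, the share of Tent5b was 68.0% in GRL/L, 13.5% in GRD/D and 7.21% in GRD+L/D+L, less than on the log2 scale.

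**Figure D3:**
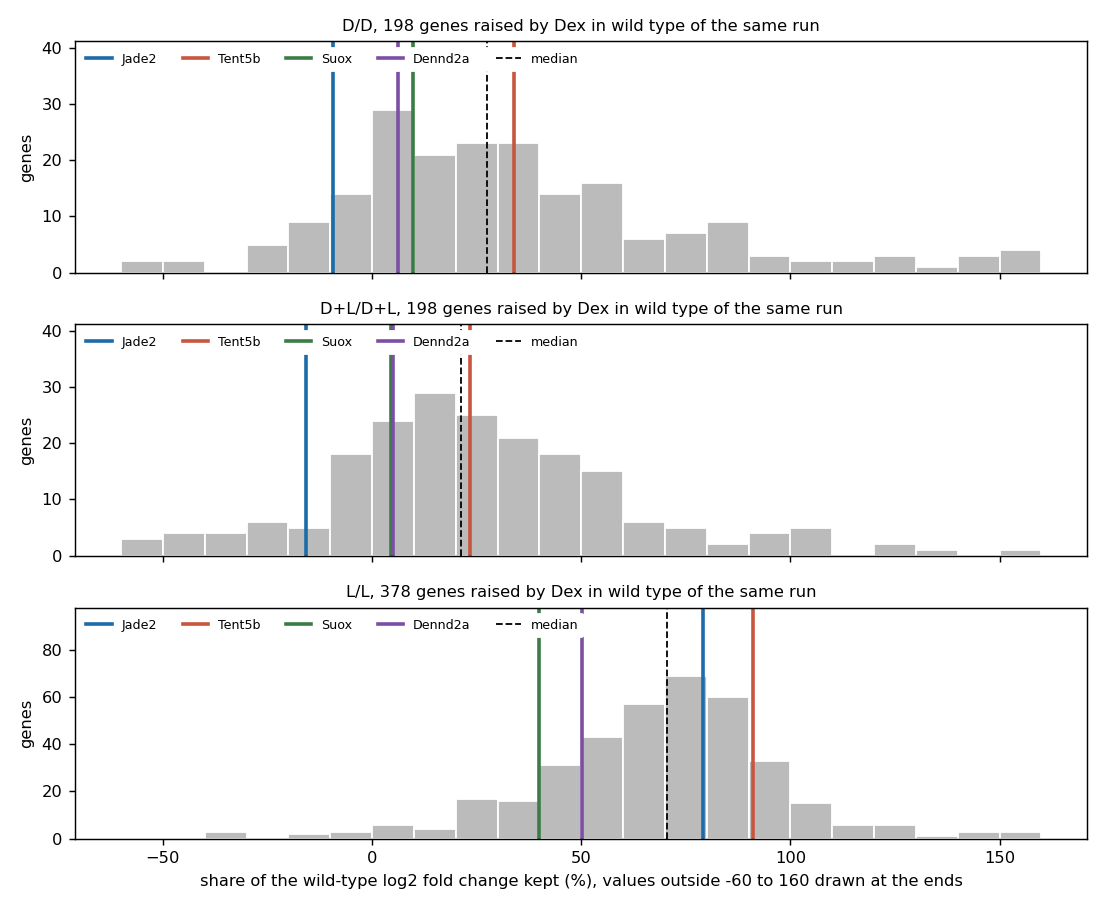
Histograms of the share of the GRwt/wt log2 fold change (percent, x axis) kept in GRD/D, GRD+L/D+L and GRL/L by the genes that Dex raised in GRwt/wt of the same run (number of genes, y axis), with the 4 genes as coloured lines and the median dashed. Jade2 and Tent5b lie to the right of the median of 70.6% in GRL/L, and Tent5b lies to the right of the median of 27.5% in GRD/D.

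Compared per kilobase of merged exons, so that the genes can be ordered, the GRwt/wt vehicle level of run 1 was highest for Dennd2a (9.80 ± 0.231 CPM per kb, SD, n = 3), followed by Suox (7.53 ± 0.567), Tent5b (4.07 ± 0.278) and Jade2 (0.671 ± 0.095). With Dex the order was Tent5b (32.9 ± 1.62), Suox (30.2 ± 1.02), Dennd2a (20.5 ± 0.481) and Jade2 (2.30 ± 0.0544), so Tent5b and Suox moved above Dennd2a. Across the 12 groups, Jade2 was highest in GRwt/wt with Dex of run 2 (42.0 ± 2.51 CPM), then in GRL/L with Dex (34.3 ± 0.953), GRwt/wt with Dex of run 1 (24.7 ± 0.585) and the GRko/ko groups (20.1 ± 1.16 with vehicle and 19.5 ± 1.48 with Dex), which overlapped with each other. It was lowest in GRD+L/D+L with Dex (4.97 ± 0.359). Tent5b, Suox and Dennd2a each had GRwt/wt with Dex of run 1 first and of run 2 second, with means of 75.3 ± 3.71 and 61.9 ± 2.41, 75.3 ± 2.56 and 32.8 ± 0.835, and 148 ± 3.48 and 92.7 ± 2.71 CPM. The lowest groups were those of GRko/ko for Tent5b (4.67 ± 0.619 CPM with Dex) and Suox (12.8 ± 0.496 with Dex), and GRwt/wt with vehicle of run 2 for Dennd2a (45.3 ± 2.17), which overlapped with GRko/ko with Dex (47.3 ± 2.75).

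Vehicle levels ask whether the genes differed between genotypes before Dex was added. They were tested against GRwt/wt of the same run with edgeR's quasi-likelihood test and Benjamini-Hochberg adjustment over 15489 genes, and a difference was called at an adjusted p of at most 0.05 without a limit on its size. The vehicle libraries also enter the Dex responses by which the genes were chosen. A low GRwt/wt or a high mutant vehicle value favours being chosen, so the tests are not free of the choice. In GRko/ko all 4 genes differed, in a comparison where 45.7% of all tested genes were called. Jade2 was 2.79-fold higher there (20.1 ± 1.16 against 7.21 ± 1.02 CPM, SD, n = 3, log2 difference 1.48, standard error 0.085, edgeR adjusted p = 3.7e-17). These 3 vehicle libraries, at 19.0, 21.3 and 20.0 CPM, lay below the 3 Dex libraries of GRwt/wt in run 1. The other 3 genes were lower in GRko/ko. Tent5b differed by −0.97 on the log2 scale (4.74 ± 0.335 against 9.30 ± 0.636 CPM, edgeR adjusted p = 2.61e-07), Dennd2a by −0.57 (47.6 ± 1.3 against 70.8 ± 1.67 CPM, edgeR adjusted p = 4.15e-11) and Suox by −0.35 (14.7 ± 1.04 against 18.8 ± 1.41 CPM, edgeR adjusted p = 0.000125). No GRko/ko vehicle library overlapped with GRwt/wt for any of the 4, but how many of all genes lacked such overlap was not counted. Of the 15489 tested genes, 7981 had an unadjusted p under 0.05 in this comparison. These calls kept their direction and their side of the limit under all alternatives run and without any single library. All 8 macrophage markers and all 5 tested cartilage markers were higher in GRko/ko (cartilage sum 180 to 551 against 19.0 to 21.1 CPM in GRwt/wt), 3 of 8 fibroblast markers were higher and 3 lower, and 3 of 4 tested muscle markers were higher and 1 lower. The muscle sum was nevertheless lower in GRko/ko, at 410 to 456 CPM with vehicle against 676 to 781 CPM in GRwt/wt. The GRko/ko libraries were also male, and the parents are named as 129/SvJ. The part of any of these in the differences was not tested.

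In GRD/D 1 of the 4 genes was called, with 9.55% of all genes called. Jade2 was higher (9.29 ± 0.544 against 7.21 ± 1.02 CPM, log2 difference 0.36, standard error 0.096, edgeR adjusted p = 0.0109), and the libraries did not overlap. The call was lost without GRwt/wt vehicle replicate 1 (adjusted p = 0.137) or replicate 2 (0.0568), without the filter on low counts (0.0517) and with GRwt/wt of both runs pooled (0.0737). All 8 macrophage markers were higher in GRD/D too, as were 1 of 8 fibroblast and 1 of 4 muscle markers, and their part was not tested. For Suox the log2 difference was 0.17 (edgeR adjusted p = 0.118), for Tent5b −0.09 (0.732) and for Dennd2a −0.05 (0.675), and the 95% intervals were 0.04 to 0.31, −0.33 to 0.15 and −0.15 to 0.06 before adjustment for the number of genes.

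In GRD+L/D+L no gene of the 4 was called by edgeR (4 had an unadjusted p under 0.05, and DESeq2 called 0), with 29.9% of all genes called. Of the 15489 tested genes, 6126 had an unadjusted p under 0.05 in this comparison. The log2 differences were −0.26 for Jade2 (edgeR adjusted p = 0.0808), −0.31 for Tent5b (0.0628), 0.17 for Suox (0.0573) and 0.12 for Dennd2a (0.0861). No vehicle library of GRD+L/D+L overlapped with GRwt/wt for any of the 4 genes, and the adjusted p lay just past the limit. How many of all genes lacked such overlap was not counted. Jade2 passed it without GRwt/wt vehicle replicate 1 (adjusted p = 0.0344) and with GRwt/wt of both runs pooled (0.00341). Suox passed it without GRD+L/D+L vehicle replicate 2 (0.0466), without GRwt/wt vehicle replicate 2 (0.0479) and with at least 10 counts required in every library (0.0436). All 8 macrophage markers and 4 of 8 fibroblast markers were lower in GRD+L/D+L, 2 of 5 cartilage markers were higher and 1 lower, and the libraries were male. The part of any of these was not tested.

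In GRL/L none of the 4 genes was called by edgeR against GRwt/wt of run 2 (1 had an unadjusted p under 0.05, and DESeq2 called 0), with 11.3% of all genes called. Of the 15489 tested genes, 3571 had an unadjusted p under 0.05 in this comparison. The log2 difference was 0.03 for Jade2 (95% interval −0.11 to 0.16, edgeR adjusted p = 0.873), −0.23 for Tent5b (−0.45 to −0.0046, 0.225), 0.14 for Suox (0.02 to 0.27, 0.143) and 0.09 for Dennd2a (−0.01 to 0.19, 0.336). The Suox vehicle libraries of GRL/L (15.95 to 17.8 CPM) did not overlap with those of GRwt/wt (15.1 to 15.9 CPM), and with GRwt/wt of both runs pooled the difference was 0.39 (adjusted p = 0.0239). All 8 macrophage markers and 3 of 5 cartilage markers were higher in GRL/L, 1 of 8 fibroblast and 2 of 4 muscle markers were lower, and their part was not tested.

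**Figure D4:**
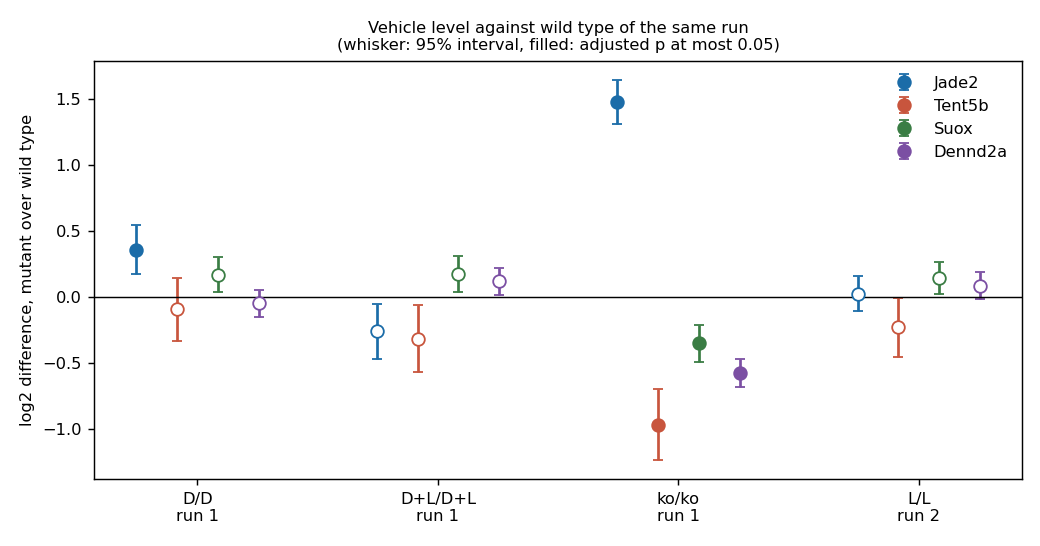
Log2 difference of the vehicle level between each mutant and GRwt/wt of the same run for the 4 genes, with 95% intervals as whiskers and filled points where the adjusted p was at most 0.05. The GRko/ko points spread from −0.97 (Tent5b) to 1.48 (Jade2), and those of the other mutants lie between −0.31 and 0.36.

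The Dex response of GRwt/wt was set side by side between runs. As it is a response by which the genes were chosen, the differences for the 4 genes are a description without a test. The response of Suox was 0.91 less on the log2 scale in run 2 than in run 1 (2.00 against 1.09, standard error of the difference 0.087), and all 3 replicate differences of run 2 lay below those of run 1. Replicate differences are again between libraries of the same number, which was not shown to mark pairs. In its rank among the raised genes, Suox went from 59 of 198 in run 1 to 336 of 378 in run 2. For the other genes the replicate differences of the runs overlapped, with −0.25 (standard error 0.11) for Jade2, 0.21 (0.14) for Tent5b and −0.03 (0.073) for Dennd2a. Of all tested genes, 7.09% differed between runs at an adjusted p of at most 0.05. Tsc22d3, Fkbp5 and Dusp1, GRE genes used for qPCR in the study, went the other way from Suox. The response of Tsc22d3, which codes for the glucocorticoid-induced leucine zipper, was 1.73 higher in run 2 (1.84 and 3.56), that of Fkbp5, a co-chaperone of GR, 1.12 higher (2.58 and 3.70), and that of Dusp1, a phosphatase of MAP kinases, 1.08 higher (0.34 and 1.42), with edgeR adjusted p from 2.37e-15 to 6.42e-11 for these 3 genes. The runs also differed in sex and depth, and the summed skeletal muscle markers were 621 to 781 CPM in GRwt/wt of run 1 and 27.1 to 30.8 CPM in run 2. The part of these in the difference cannot be told apart.

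Other genes with related functions were read from 5 lists, of which 55 of 58 genes were tested. By both Dex thresholds, 2 of the 55 were raised in GRwt/wt of run 1, 5 in run 2 and 3 in GRL/L, and none was lowered, where 2.01%, 4.49% and 2.56% of all tested genes passed in either direction. The median log2 fold change of the 55 was 0.01, −0.05 and −0.04 in these groups, against −0.0018, −0.011 and −0.0091 for all tested genes. No listed gene passed in GRD/D, GRD+L/D+L or GRko/ko by edgeR or DESeq2, where 16, 11 and 1 had an unadjusted p under 0.05, as did 25.2%, 14.5% and 5.55% of all tested genes. Without GRwt/wt Dex replicate 3 or vehicle replicate 1 of run 1, Tent5c was no longer among the raised genes, which left 1 of the 55 in each case.

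Among 9 tested nucleotidyltransferases, only Tent5c passed, and it is a close relative of Tent5b. Its log2 fold change was 1.08 in GRwt/wt of run 1 (edgeR adjusted p = 0.000121), 3.18 in run 2 (3.5e-20), 1.84 in GRL/L (3.67e-13), 0.14 in GRD/D (0.70) and 0.10 in GRD+L/D+L (0.941). Tent5a, the other tested member of the Tent5 branch, did not follow it. Its log2 fold change was 0.28 in GRwt/wt of run 1 (edgeR adjusted p = 0.00625), −0.01 in run 2 (0.912) and 0.30 in GRD/D (0.0035). In GRD+L/D+L it was 0.63 (9.41e-07) and in GRL/L −0.21 (0.0116). Tent5d was not tested, as its counts were too low.

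Of the 19 tested DENN domain genes, Dennd4a alone passed both thresholds. It rose by 1.19 on the log2 scale in GRwt/wt of run 1 (edgeR adjusted p = 2.15e-16) and by 1.12 in run 2 (5.74e-17). In GRL/L the value was 0.95 (1.47e-14), which passed the adjusted p but not the fold, and in GRD/D and GRD+L/D+L it was 0.04 and 0.05 (0.803 and 0.88). The closest relatives of Dennd2a showed no such rise. Dennd2b, listed under its older symbol St5, was at −0.06 and −0.29 in GRwt/wt of runs 1 and 2 (edgeR adjusted p = 0.653 and 0.000232), and Dennd2c at −0.25 and −0.26 (0.123 and 0.0259).

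Around Suox, the enzymes that make or use its molybdenum cofactor passed both thresholds in GRwt/wt of run 2 for 2 of the 8 tested genes and in run 1 for none. Mocs1, which acts at the first step of cofactor synthesis, had a log2 fold change of 0.45 in GRwt/wt of run 1 and 1.13 in run 2 (edgeR adjusted p = 1.32e-06 and 3.49e-19), and Xdh, xanthine dehydrogenase, 0.16 and 1.41 (0.476 and 4.36e-16). In the sulfur oxidation list, Cdo1, the cysteine dioxygenase upstream of sulfite, had 0.13 and 1.60 (0.483 and 2.95e-18). All 3 responses were greater in run 2 (differences 0.68, 1.24 and 1.47), whereas that of Suox was less. The 3 genes were named because they passed in run 2, so these differences are a description without a test. In GRL/L the values were 0.56, 1.07 and 1.18. Sqor, the mitochondrial sulfide oxidase, had the smallest p of its list in run 1 and rose by 0.30 (edgeR adjusted p = 0.00384).

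None of the 10 JADE2 partners passed both thresholds in any genotype by edgeR, and DESeq2 called as many listed genes as edgeR in each genotype. In GRwt/wt of runs 1 and 2, 4 and 3 of them had an unadjusted p under 0.05, as did 24.9% and 40.9% of all tested genes. In run 2 the smallest p was that of Kdm1a, a histone demethylase (log2 fold change −0.23, edgeR adjusted p = 0.000205). In run 1 it was that of Jade1, a paralog of Jade2, which had a log2 fold change of −0.78 in GRwt/wt of run 1 (edgeR adjusted p = 1.9e-13), −0.23 in run 2 (0.00222) and −0.48 in GRD/D (5.14e-08), opposite in sign to Jade2 in GRwt/wt. The third paralog, Jade3, was at 0.16 in GRwt/wt of run 1 (0.234), 0.10 in run 2 (0.334), 0.50 in GRD/D (4.51e-05), 0.63 in GRD+L/D+L (1.65e-06) and 0.36 in GRL/L (0.000394). Kat7, the acetyltransferase of the complex, was at −0.03 and −0.08 in GRwt/wt (0.796 and 0.136).

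The 2 nearest tested protein-coding genes on each side of the 4 genes, 16 neighbours in all, were compared likewise. Distances are between the RefSeq gene ends, which differ from the GENCODE ends given above. Only Trnp1, whose nearer end lies 3157 bases beyond Tent5b, passed both thresholds, in GRwt/wt of run 2 (log2 fold change 1.14, edgeR adjusted p = 4.27e-11) and in GRL/L (1.06, 3.64e-10). It had 0.67 in GRwt/wt of run 1 (3.49e-05), 0.42 in GRD/D (0.018), 0.05 in GRD+L/D+L (0.935) and 0.12 in GRko/ko (0.943), and DESeq2 called the same number of neighbours in each group. Cdkn2aipnl, 108620 bases from Jade2, rose by 0.41 and 0.46 in GRwt/wt of runs 1 and 2 (edgeR adjusted p = 3.88e-05 and 1.4e-07) and by 0.42 in GRL/L (2.15e-06), with −0.12 in GRD/D (0.318) and −0.10 in GRD+L/D+L (0.65). Of the neighbours of Suox and Dennd2a, Rab5b and Mkrn1 passed the adjusted p in GRwt/wt of run 2 with −0.22 (0.000831) and 0.24 (0.000194). Mkrn1 also passed it in run 1 with 0.16 (0.0465), and Rab5b in GRD/D with −0.17 (0.0411). Ikzf4, which ends 216 bases from Suox, had 0.85 and −0.52 in GRwt/wt of runs 1 and 2 (0.115 and 0.0877), with standard errors of 0.35 and 0.23, and passed both thresholds in run 1 without GRwt/wt vehicle replicate 1. Rab19 and Pmel had standard errors of 0.38 to 1.32 and passed the adjusted p in no group.

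The genes most like each of the 4 across the 36 libraries were ranked by Pearson's r of log2 CPM after subtracting the mean of the GRwt/wt vehicle libraries of the run. The libraries share treatment, genotype and run, so r mainly carries the group means and is a description. Jade2 was nearest to Medag (r = 0.927), Phka2 (0.909) and its neighbour Cdkn2aipnl (0.904). Medag had the same order of Dex responses as Jade2, with 1.51 and 1.11 in GRwt/wt of runs 1 and 2, 0.57 in GRL/L and −0.12 and −0.38 in GRD/D and GRD+L/D+L, and a vehicle level 1.37 higher on the log2 scale in GRko/ko. Tent5b was nearest to B4galt1 (0.985), Ap1s2 (0.978) and Mt2 (0.971), a metallothionein gene with log2 fold changes of 3.25 and 4.29 in GRwt/wt. Suox was nearest to Phtf1 (0.947), Limd1 (0.947) and Ap2a2 (0.933), and Dennd2a to Phtf1 (0.969), Ap2a2 (0.965) and Oxr1 (0.958), so that Phtf1 and Ap2a2 stood in both lists. Among the 4 genes, r was 0.875 to 0.934 for the pairs of Tent5b, Suox and Dennd2a and 0.263 to 0.45 for the pairs with Jade2. Within the 24 libraries of run 1 these were 0.93 to 0.967 and −0.00879 to 0.22. These r values include the GRko/ko libraries, where the vehicle level of Jade2 was higher than in GRwt/wt and that of the other 3 genes lower.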

How the data were processed

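RNA of primary MEFs was sequenced (TruSeq libraries, NextSeq). Per the labels, the authors aligned reads to mm10 with HISAT2 (2.1.0) and counted unique reads per gene with featureCounts (2.0.0). The deposited values are raw counts per gene. The annotation and strand setting are not given in the sources used here. Groups came from the labels. The libraries held 15280166 to 28662608 counts, and the biological coefficient of variation was 0.0513, so the spread between libraries limits the precision of well-counted genes.

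The counts were filtered with filterByExpr (15489 of 55487 genes kept), scaled by TMM and fitted once over 36 libraries in 12 groups of genotype, run and treatment with edgeR 4.0.16 (R 4.3.3), using the quasi-likelihood test and Benjamini-Hochberg adjustment over all genes tested. A gene was called for Dex where its log2 fold change was 1 or more in size at an adjusted p of 0.05 or less. Calls on vehicle levels and on the difference between runs needed the adjusted p alone. The test of the difference between runs was planned for the 4 genes too but is not used for them, since it rests on responses by which they were chosen. The 95% intervals are normal intervals from the standard error of the gene. Standard errors named approximate combine those of both responses as if they were independent. The p-values measure the spread between the libraries of a group, which the study describes as cultures from different mice. Between 2 libraries of a group, the median squared difference per gene was 1.41 to 7.24 times that of counting noise. All libraries of a genotype within a run were of the same sex. Whether the cultures were independent cannot be told from the counts. If they were not, the p-values measure a spread within a culture and not between mice, and genotype and culture cannot be told apart. The script was tested on simulated data.

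The 4 genes, the lists and the rule for named genes were chosen with earlier results of these data known. That rule took the 4 genes, listed genes past both thresholds in GRwt/wt or with the smallest p of their list, the 2 nearest tested genes on each side, the 3 genes with the highest Pearson's r, Nr3c1, and the GRE genes measured by qPCR. Tent5a, Jade3, Kat7, Dennd2b and Dennd2c fall outside it and were named as relatives after their values were seen. Alternatives were DESeq2 1.42.0, its size factors, other filters, fits within a run, an additive run term, a replicate block and leaving out each library. Vehicle and Dex libraries share culture numbers in the labels, and of 18 pairs of such libraries 1 had deviations correlated over 0.1, so the numbers were not used as pairs. The values of some neighbours are not reported here.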

Additional observations from a re-analysis of the deposited data

Results flagged for a closer look

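For Jade2 every Dex library of GRD/D and of GRD+L/D+L lay below every vehicle library, the opposite of GRwt/wt, with log2 fold changes of −0.17 and −0.28. In GRD/D the nearest libraries were at 8.66 and 8.68 CPM, and the standard error was 0.094. For Suox every Dex library of GRko/ko likewise lay below every vehicle library, with −0.20. How many of all genes were separated in this way was not counted. These 3 differences in direction from GRwt/wt were not tested, since the genes were chosen on the Dex responses.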

How the results depend on the processing

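The numbers were not shown to pair the samples (7 of 18 pairs correlated best with their own number, r from −0.0787 to 0.116), which does not exclude pairs. With the replicate block the Suox run difference was −0.91, and the counts of called list and neighbouring genes did not change. The block was not run on vehicle levels, where only 1 library per culture enters. With an additive run term and GRwt/wt of both runs pooled, the Suox response in GRwt/wt was 1.54 for each run, the vehicle differences were 0.25 (Jade2, GRD/D, call lost), −0.37 (Jade2, GRD+L/D+L, called) and 0.39 (Suox, GRL/L, called), and 3 listed or neighbouring genes were called in GRwt/wt of run 2, with Mocs1, Trnp1 and Xdh lost. The cause was not tested. Without a filter the Jade2 vehicle difference in GRD/D was 0.36 (adjusted p = 0.0517), and with at least 10 counts in every library that of Suox in GRD+L/D+L was 0.18 (called). As a ratio of rises in CPM the kept shares were −6.07% and 70.9% (Jade2, GRD+L/D+L and GRL/L), 13.5%, 7.21% and 68% (Tent5b, GRD/D, GRD+L/D+L and GRL/L) and 5.46% (Suox, GRD/D), and with GRwt/wt of both runs Tent5b in GRL/L was at 93.9%. Leaving out single libraries gave vehicle differences of 0.28 to 0.48 (Jade2, GRD/D), −0.34 to −0.14 (Jade2, GRD+L/D+L) and 0.11 to 0.21 (Suox, GRD+L/D+L), a Jade2 run difference of −0.37 to −0.17, Dex responses of 2.85 to 3.01 (Tent5b, GRL/L), 0.020 to 0.10 (Dennd2a, GRD+L/D+L) and −0.10 to 0.0048 (Jade2, GRko/ko), and 1 to 2 called list genes in GRwt/wt of run 1. By Spearman's rho 1 of the 3 most similar genes of Jade2 was kept and 0 of those of each other gene, and in run 1 alone 2, 2, 1 and 1 were kept for Jade2, Tent5b, Suox and Dennd2a. Depth limits Tent5b most, with 69 counts in its lowest library.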
